A study of Drosophila melanogaster with 3 samples.

Results

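MicroRNA (miRNA) genes encode small RNAs that silence messenger RNAs. The members described here are the genes of the Ensembl annotation of the Drosophila melanogaster genome (assembly dm6) whose symbol starts with mir-, which includes bantam and let-7 under the symbols mir-ban and mir-let7. Of 262 such genes, 260 lay on the chromosome arms analysed, and the other 2 lay on the separate ribosomal DNA sequence. The annotated gene is the hairpin precursor. Of the 260, 166 lay inside a protein-coding gene, in 148 different host genes, and 94 lay outside; joining same-strand genes no more than 10 kb apart gave 203 loci.

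The binding data came from chromatin immunoprecipitation sequencing (ChIP-seq) of NfI, a DNA-binding protein that belongs to the nuclear factor I family. Whole embryos of both sexes, 12 to 24 h old, came from a transgenic line with a stable NfI fusion carrying GFP at the C terminus, in 1 group of 3 biological replicates numbered 2, 3 and 4. The description label calls each library an input control, whereas the assay and antibody labels name a ChIP of NfI, and the libraries were treated as immunoprecipitates. No untreated or untagged libraries were analysed here, whole embryos mix every cell type, and the files give no read counts. The optimal list of 5806 peaks is the one the authors thresholded by how well peak ranks repeat between replicates, although a peak in it need not have a match in every replicate list. The pooled list of 30000 peaks also holds background.

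Most miRNAs are cut from long primary transcripts made by RNA polymerase II. Drosha and its partner Pasha release the hairpin in the nucleus, Dicer-1 trims it in the cytoplasm, and Argonaute-1 carries one strand to its targets. Bases 2 to 8 of the mature miRNA, the seed, pair with the target, so that miRNAs with one seed share many predicted targets. A miRNA inside a protein-coding gene can be made from the host's transcript or from a start site of its own.

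The mature sequences below are those of miRNAs whose surroundings the results turn on, read from the RefSeq annotation of the dm6 assembly, with the seed in capitals. They fall into 3 pairs with a common seed, mir-279 with mir-996, mir-92a with mir-92b, and mir-2a-1 with mir-2b-2, and the members of each pair lie at one locus.
mir-279-3p: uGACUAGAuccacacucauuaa
mir-996-3p: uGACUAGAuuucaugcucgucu
mir-92a-3p: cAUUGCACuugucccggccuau
mir-92b-3p: aAUUGCACuagucccggccugc
mir-2a-1-3p: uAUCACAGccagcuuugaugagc
mir-2b-2-3p: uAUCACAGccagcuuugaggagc
The others each have a seed of their own among those shown.
mir-276a-3p: uAGGAACUucauaccgugcucu
bantam-3p: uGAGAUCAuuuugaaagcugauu
let-7-5p: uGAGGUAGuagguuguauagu
mir-9a-5p: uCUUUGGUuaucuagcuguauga
mir-282-5p: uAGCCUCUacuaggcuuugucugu
mir-1-3p: uGGAAUGUaaagaaguauggag
mir-34-5p: uGGCAGUGugguuagcugguugug

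The peaks at the starts of the miRNAs' own transcripts are given first. RefSeq names 24 long non-coding or antisense RNA genes as primary miRNA transcripts, which together hold 38 of the 260 miRNA genes. An optimal summit, the highest point of a peak, lay within 500 bp of an annotated transcription start site (TSS) of 5 of the 24 (20.8%), against 8.83% of the other 2423 long non-coding and antisense RNA genes. Among the 5806 strongest peaks of each replicate taken alone, the count was 6 of 24 (25.0%) in replicates 2, 3 and 4, against 8.46%, 8.75% and 8.34% of the other genes. The primary transcripts had 1.46 TSSs each on average and a median length of 5422 bp, against 1.06 TSSs and 714 bp for the other genes. The part of these differences in the result was not tested. The other genes still include some that hold a miRNA hairpin without being named as primary transcripts, such as lncRNA:CR43626 with mir-282.

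The 5 primary transcripts with a summit at their start encode mir-279 and mir-996, mir-8, mir-14, mir-184 and mir-276a. Signal is given below as relative signal, the signal of the strongest overlapping peak in a replicate divided by the median of that replicate's 5806 strongest peaks, so that 1 is an average strong peak.

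At mir-279 and mir-996, which block the formation of carbon dioxide sensing neurons at ectopic positions in the fly head, the summit lay 111 bp before the TSS. It ranked 47 of 5806 by pooled signal. Its relative signal was 7.35, 8.32 and 9.84 in replicates 2, 3 and 4 (8.50 ± 1.26, SD, n = 3). The peak stood well above the median in every replicate. The window printed here is centred on this summit, with the 11 bases around the TSS in capitals. The second window is that of the mir-276a start, marked in the same way. The mir-276a miRNA is known for its part in olfactory memory in flies.
mir-279 and mir-996 promoter, 3R:29214331-29214571, plus strand: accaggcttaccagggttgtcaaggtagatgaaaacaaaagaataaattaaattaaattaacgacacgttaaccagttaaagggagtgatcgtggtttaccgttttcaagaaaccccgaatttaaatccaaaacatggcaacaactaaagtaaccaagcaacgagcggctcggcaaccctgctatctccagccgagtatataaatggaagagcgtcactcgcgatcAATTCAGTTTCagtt
mir-276a promoter, 3L:10363958-10364058, plus strand: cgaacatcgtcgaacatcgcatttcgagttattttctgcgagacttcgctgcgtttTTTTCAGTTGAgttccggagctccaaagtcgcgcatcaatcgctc
The mir-276a summit lay 11 bp from a TSS, ranked 5136, and had relative signals of 0.470, 0.460 and 0.849 in replicates 2, 3 and 4 (0.593 ± 0.222, SD, n = 3). It was below the median of strong peaks in every replicate and was among the strongest 5806 of 1 replicate.

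The other 3 promoter summits were of average strength. At mir-14, a regulator of cell death and fat metabolism, the summit lay 21 bp from the TSS and had relative signals of 0.780, 1.07 and 1.44 in replicates 2, 3 and 4 (1.10 ± 0.330, SD, n = 3). At mir-184, needed in the female germ line and the early embryo, it lay 7 bp from a TSS, with 0.637, 0.797 and 0.998 (0.810 ± 0.181, SD, n = 3). At mir-8, the fly relative of the vertebrate miR-200 family, it lay 184 bp from a TSS, with 1.33, 0.853 and 0.744 (0.977 ± 0.314, SD, n = 3). These 3 ranges overlapped one another, and each lay below that of the mir-279 promoter.

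Several other primary transcripts had their nearest optimal summit a little farther off. That of bantam, which promotes growth and blocks cell death, lay 501 bp from a TSS, 1 bp past the limit, with relative signals of 0.997, 0.720 and 1.42. That of mir-1, the muscle miRNA, lay 609 bp away, with 0.803, 0.268 and 0.273 (0.448 ± 0.307, SD, n = 3); without replicate 2 the mean was 0.271. Within 2 kb of a TSS, 10 of 24 (41.7%) had an optimal summit, against 22.7% of the other long non-coding and antisense RNA genes. In the pooled list, 18 of 24 (75.0%) had a start within 500 bp of a summit, against 32.3% of the other long non-coding and antisense RNA genes, and 13 of these 18 had no optimal summit there. The neural miRNA mir-124 is an example, since its nearest optimal summit was 17046 bp from a TSS and its nearest pooled summit was 43 bp away, at rank 15661 and with a relative signal of 0.264 in replicate 2 alone. That peak was weak and had no match in replicates 3 and 4.

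**Figure D1:**
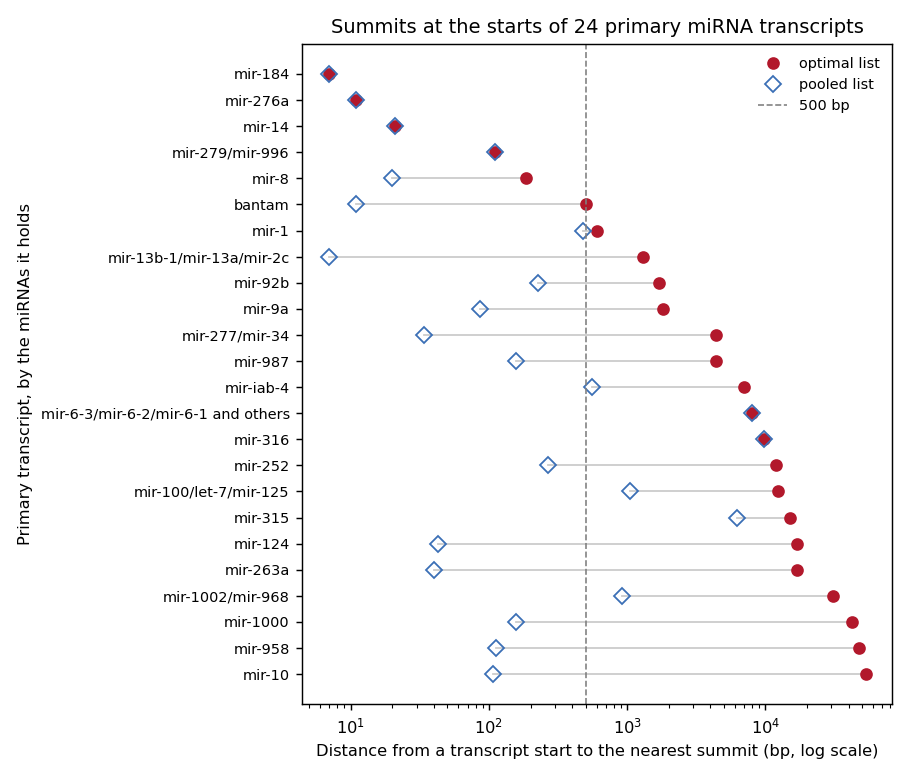
Distance in bp, on a log axis, from an annotated start of each of 24 primary miRNA transcripts to the nearest summit of the optimal list (filled circles) and of the pooled list (open diamonds), with a dashed line at 500 bp. Of the 24, 5 optimal and 18 pooled summits lie at or below the line, and the bantam optimal summit lies at 501 bp.

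Most of the strongest summits within 10 kb of a miRNA gene lay at promoters, of neighbouring genes, of host genes or, at mir-279, of the miRNAs' own transcript. The strongest of all, at rank 10, was 7661 bp downstream of mir-9383 and 108 bp from the TSS of Art3, an arginine methyltransferase gene, with relative signals of 13.9, 14.5 and 13.1 in replicates 2, 3 and 4 (13.8 ± 0.748, SD, n = 3). The next, at rank 17, was 6579 bp upstream of mir-14 and 225 bp from the TSS of CG1888, with 10.9, 11.7 and 16.1 (12.9 ± 2.81, SD, n = 3). The third, at rank 25, was 6280 bp downstream of mir-1001 at the TSS of CG5611, with 10.9, 11.8 and 11.0 (11.2 ± 0.450, SD, n = 3). These 3 peaks were more than 10 times as strong as the median in every replicate. The tank promoter peak, 7830 bp upstream of mir-4912, was less even, with 4.27 in replicate 2, 11.8 in replicate 3 and 15.5 in replicate 4 (10.5 ± 5.73, SD, n = 3). The peak 845 bp upstream of mir-4981, at rank 78, was the strongest within 1 kb of a miRNA gene, with 4.62, 6.90 and 11.3 (7.61 ± 3.40, SD, n = 3). It lay 649 bp from the nearest TSS, that of CG14762.

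The mir-279 and mir-996 locus held a second strong summit, at rank 114, 2879 bp downstream of mir-996 and 13 bp from the TSS of eEF1gamma, a translation elongation factor gene. Its relative signal was 5.09, 5.93 and 7.38 in replicates 2, 3 and 4 (6.14 ± 1.16, SD, n = 3), in the same replicate order as the promoter summit of the miRNAs. The window around it holds TATCGATA, the motif bound by DREF, in capitals, and is cut to the part outside annotated UTRs. The second window below lies 554 bp downstream of mir-305 and 268 bp from the TSS of muc. In that window, capitals mark first the homeodomain core TAATTA, then the motif CTATCGA, and last GGTCACACT, which is read on the minus strand.
eEF1gamma promoter beside mir-996, 3R:29220059-29220171, plus strand: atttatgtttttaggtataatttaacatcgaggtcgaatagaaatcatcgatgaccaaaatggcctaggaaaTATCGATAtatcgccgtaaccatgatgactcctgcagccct
muc promoter beside mir-305, 2L:7426498-7426698, plus strand: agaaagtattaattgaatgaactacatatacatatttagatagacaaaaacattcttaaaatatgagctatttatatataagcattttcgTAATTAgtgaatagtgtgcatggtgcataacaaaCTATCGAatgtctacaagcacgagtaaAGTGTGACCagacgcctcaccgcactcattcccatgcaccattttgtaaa
The mir-305 summit ranked 5425 and had relative signals of 0.919, 0.378 and 0.540 in replicates 2, 3 and 4 (0.612 ± 0.277, SD, n = 3), below the median throughout.

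Other summits among the 15 strongest near miRNA genes were of moderate strength. The peak beside mir-1006 had relative signals of 4.35, 6.16 and 5.57 and lay 144 bp from the TSS of CG31808, and that beside mir-4946 had 3.32, 4.44 and 4.06 and lay 118 bp from the TSS of CG10602. The peak beside mir-955 had 4.14, 3.32 and 2.92 and lay 71 bp from the TSS of CG14968. The peaks beside mir-9380, with 3.98, 4.95 and 4.43, and mir-966, with 4.27, 3.22 and 3.45, lay 1252 and 655 bp from the nearest TSS. Of these 15, 11 lay within 500 bp of a TSS, against 71.1% of the 336 optimal summits at least as strong as the weakest of them, so that the count is near that background.

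Summits of miRNA hosts could be followed at several genes. The mir-2a-1, mir-2a-2 and mir-2b-2 hairpins lie in introns of spi, the gene of the epidermal growth factor receptor ligand Spitz, and mir-2 miRNAs target cell death genes such as reaper. Within 10 kb of mir-2a-1, 5 optimal summits were found, and all 5 lay within 500 bp of a TSS. The strongest, 166 bp from a spi TSS, had relative signals of 4.17, 4.94 and 5.57 in replicates 2, 3 and 4 (4.89 ± 0.701, SD, n = 3). The summit at rank 3496 matched the same replicate peaks and is not a separate measurement.

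In jigr1, which holds mir-92a in an intron and mir-92b in the 3' UTR, miRNAs known from neural stem cells, a summit lay 416 bp downstream of mir-92a and 230 bp from a jigr1 TSS. It had relative signals of 3.78, 2.49 and 4.09 (3.45 ± 0.848, SD, n = 3). In RpS23, a ribosomal protein gene, a summit lay 12 bp from the TSS and 726 bp upstream of the intronic mir-308, with 2.29, 2.94 and 4.59 (3.27 ± 1.18, SD, n = 3). Both peaks were above the median in every replicate.

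The host genes with the most optimal summits near their miRNA were Tis11, Tlk and CG3764, with 4 each. In Tis11, which encodes a protein that destabilises mRNAs, the 4 summits lay 354 to 7218 bp downstream of mir-9377 and were intronic. The strongest had relative signals of 4.44, 3.57 and 2.13 in replicates 2, 3 and 4 (3.38 ± 1.17, SD, n = 3). In Tlk, the gene of the Tousled-like kinase, the 4 summits were also intronic, and one lay inside the mir-4962 hairpin, the single optimal summit inside a miRNA gene. It had relative signals of 0.742, 1.05 and 0.709 (0.833 ± 0.187, SD, n = 3), close to the median of strong peaks. In CG3764, the 4 summits lay 2758 to 8653 bp upstream of mir-2500.

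Over all hosts, 60 of 148 (40.5%) had an optimal summit within 500 bp of a TSS, against 26.1% of all protein-coding genes. The hosts had 2.24 TSSs each on average and a median length of 14201 bp, against 1.41 TSSs and 2166 bp for all protein-coding genes, and the part of this in the result was not tested. Of the 166 miRNA genes inside a protein-coding gene, 136 had a host on their own strand. The 148 hosts also include genes on the opposite strand, and the share for same-strand hosts alone was not computed.

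Among miRNA genes outside protein-coding genes, bantam had 5 optimal summits within 10 kb, none within 500 bp of a TSS. The strongest, 2051 bp downstream of the hairpin, had relative signals of 1.35, 3.13 and 3.66 in replicates 2, 3 and 4 (2.71 ± 1.21, SD, n = 3). Replicate 2 was the lowest at this summit and at the next 3 by rank, but not at the weakest, where it had 0.607 against 1.19 in replicate 3 and 0.454 in replicate 4. At mir-34 and mir-277, miRNAs studied in fly ageing, a summit lay between the hairpins, 216 bp upstream of mir-34, with 0.682, 0.780 and 1.15 (0.869 ± 0.245, SD, n = 3). A promoter summit of Fmr1, the fly gene of fragile X syndrome, lay 9031 bp downstream of mir-34.

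The genes with the most optimal summits within 10 kb were mir-375 and mir-4943, with 7 each, and mir-4910, with 6. The summit nearest to mir-375, 679 bp upstream, had relative signals of 0.432, 1.69 and 2.38 in replicates 2, 3 and 4 (1.50 ± 0.986, SD, n = 3), so that replicate 2 was below the median and the others above it. The strongest near mir-4943 had 3.94, 6.76 and 5.17 (5.29 ± 1.41, SD, n = 3) and lay 404 bp from a TSS of its host CG5953. At mir-282 the summit 796 bp upstream had 4.41, 2.84 and 2.62 (3.29 ± 0.977, SD, n = 3) and lay 368 bp from the TSS of lncRNA:CR43626, in which the hairpin lies. At mir-9a, which acts in sensory organ precursors, the one optimal summit lay 4316 bp upstream, with 3.70, 3.09 and 2.52 (3.10 ± 0.590, SD, n = 3).

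**Figure D2:**
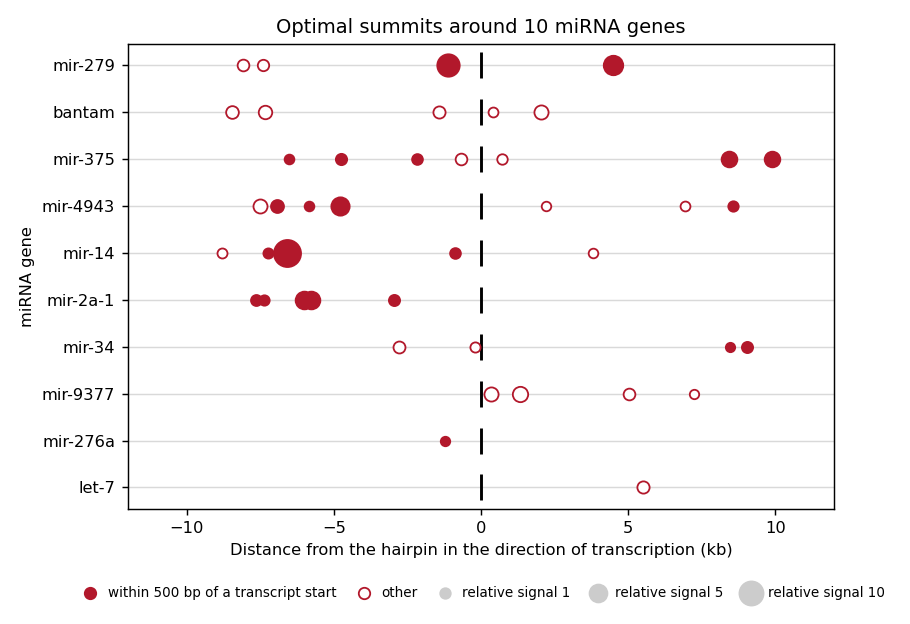
Optimal summits within 10 kb of 10 miRNA genes, by distance in kb from the hairpin (black bar) in the direction of transcription; circle area grows with the mean relative signal of the replicates, and filled circles lie within 500 bp of a TSS. The 5 summits at mir-2a-1 are filled and upstream, and the 5 at bantam are open. At mir-2a-1, the summit of rank 3496 is drawn with the signal of the strongest one, whose replicate peaks it shares, and is not a separate measurement.

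Other well-studied miRNA genes had few or weak optimal summits. The let-7 gene, a timer of the change to the adult, had 1 within 10 kb, 5506 bp downstream, with no match in replicate 2 and relative signals of 2.03 and 1.45 in replicates 3 and 4. The mir-iab-4 and mir-iab-8 hairpins, on opposite strands of one site in the bithorax complex, shared 1 summit at 871 bp, with 0.758, 0.202 and 0.877 (0.612 ± 0.360, SD, n = 3). The mir-263a gene, annotated as mir-bft and known from bristle sense organs, had 2, the nearer 3323 bp downstream with 0.498, 0.901 and 1.16. The mir-310 gene had 1, 1152 bp downstream and 468 bp from a TSS of qsm, with 0.537, 1.36 and 1.14. The mir-124 gene had none within 10 kb.

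**Figure D3:**
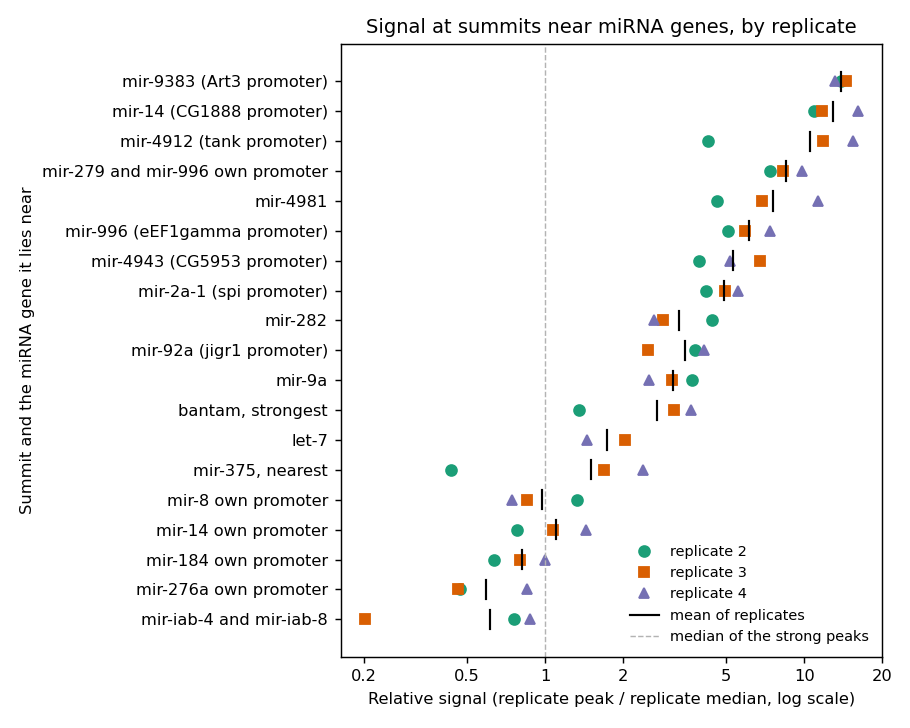
Relative signal, on a log axis, at 19 summits near miRNA genes in replicates 2, 3 and 4, with the mean of the matched replicates as a black bar and the median of the strongest 5806 peaks as a dashed line. The promoter of mir-279 and mir-996 lies between 7.35 and 9.84, and the mir-276a promoter between 0.460 and 0.849.

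In all, 29 of 260 miRNA genes (11.2%) had an optimal summit within 1 kb, against 13.1% of tRNA genes, 24.5% of snoRNA genes and 7.72% of the bases of the arms. They comprised 18 of 166 inside (10.8%) and 11 of 94 outside (11.7%) a protein-coding gene. The share of all other genes was not computed at this distance, and the differences were not tested. The 29 are mir-8, mir-14, mir-34, mir-92a, mir-92b, bantam, mir-275, mir-277, mir-282, mir-305, mir-308, mir-375, mir-966, mir-2491, mir-2496, mir-4911, mir-4949, mir-4957, mir-4959, mir-4962, mir-4968, mir-4974, mir-4981, mir-9373, mir-9377, mir-9378, mir-9380, mir-iab-4 and mir-iab-8. Among those not yet described, mir-2491, mir-9378 and mir-4949 were the nearest, at 164, 165 and 188 bp. The first had relative signals of 0.308, 1.11 and 1.72, the second 0.592, 1.26 and 1.51, and the third 0.545, 0.723 and 0.787. Replicate 2 was the lowest at each of these 3.

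Within 10 kb, 166 of 260 miRNA genes (63.8%) had an optimal summit, against 66.2% of all other genes, 55.5% of tRNA genes, 85.1% of snoRNA genes and 42.7% of the bases of the arms. The share was 106 of 166 (63.9%) inside protein-coding genes and 60 of 94 (63.8%) outside. With optimal peaks found in the strong lists of all 3 replicates it was 44.6% inside and 30.9% outside. With peaks matched in both remaining replicates when replicate 2, 3 or 4 was left out, it was 51.2%, 49.4% and 49.4% inside. Outside, it was 43.6%, 39.4% and 37.2%. The share of all other genes with these peak sets was not computed, and the difference was not tested. Hairpins of one cluster are counted singly although they can share a summit. Outside, the 8 of the mir-309 locus share 1 optimal summit, and the 7 of the mir-310 locus share 1. In the pooled list the share of all miRNA genes was 237 of 260 (91.2%), against 92.0% of all other genes. The shares of all miRNA genes with the whole optimal and pooled lists are near the background, and give no result about the miRNA genes as a group. Other genes are longer than hairpins, so that a fixed distance around them covers more bases.

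Taking the strongest 5806 peaks of each replicate, 59.2%, 58.5% and 60.0% of miRNA genes had a summit within 10 kb in replicates 2, 3 and 4 (59.2 ± 0.769, SD, n = 3), against 65.7%, 66.0% and 64.5% of all other genes (65.4 ± 0.807, SD, n = 3). The miRNA genes were lower in 3 of 3 replicates. The genes are the same in each replicate, so the SD reflects differences between peak lists and not the sampling of genes. The 3 replicates are therefore not separate tests of the miRNA genes as a group. Other genes are longer than hairpins, and the part of this in the difference was not tested. Inside protein-coding genes the shares were 63.3%, 59.0% and 60.8%, and outside 52.1%, 57.4% and 58.5%. The inside share was higher in each replicate, by amounts that ranged widely, and the difference was not tested. Genes of one cluster move the outside share together. The 7 genes of the mir-310 locus had no such summit in replicate 2 but had one in replicates 3 and 4. The 8 of the mir-309 locus had none in replicate 3 but had one in replicates 2 and 4. The members nearest the 10 kb limit were mir-988, mir-4979 and mir-4956 inside it, at 9687, 9791 and 9872 bp, and mir-1005, mir-252 and mir-13b-2 outside it, at 10027, 10044 and 10058 bp.

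**Figure D4:**
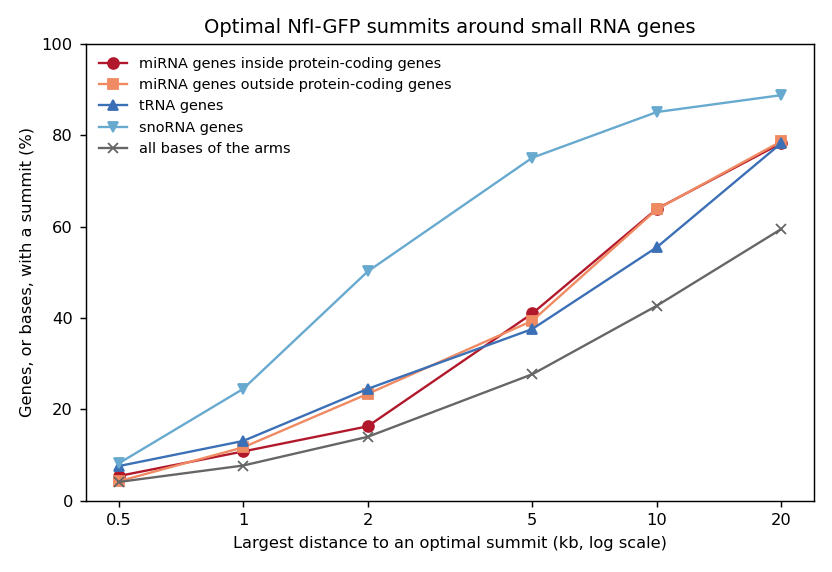
Share in percent of miRNA genes inside and outside protein-coding genes, of tRNA and snoRNA genes, and of all bases, with an optimal summit within 0.5 to 20 kb (log axis). At 10 kb the miRNA lines stand at 63.9% and 63.8%, snoRNA genes at 85.1%, tRNA genes at 55.5% and bases at 42.7%.

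By the number of optimal summits within 10 kb, 94 members had none, 80 had 1, 34 had 2, 25 had 3, 11 had 4, 13 had 5, 1 had 6 and 2 had 7. The same numbers were not computed for other genes, so they have no background beside them. By arm, the shares were 66.1% on 2L, 72.7% on 2R, 54.8% on 3L, 69.0% on 3R and 53.4% on X, against 62.9%, 68.0%, 68.0%, 67.6% and 65.5% of the other genes of those arms. The differences between arms were not tested. Hairpins of one cluster are counted singly here too. On 2R, the 8 of the mir-309 locus share 1 optimal summit, as do the 7 of the mir-310 locus. On X, a locus of 12 hairpins has 1 optimal summit within 10 kb, and a locus of 5 has 0. In 23 members no pooled summit lay within 10 kb either. They include mir-972, mir-973, mir-974 and mir-9369 side by side on X, and mir-954 on chromosome 4. By place, an optimal summit within 10 kb was found for 73 of 122 hairpins in introns, 17 of 22 in coding exons, 10 of 15 in 3' UTRs and 6 of 7 in 5' UTRs, beside the 66.2% of all other genes, and these differences were not tested.

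The 274 optimal summits within 10 kb of a miRNA gene were much like the rest of the list. Of these, 153 (55.8%) lay within 500 bp of a TSS, against 53.4% of all optimal summits, and 148 (54.0%) lay inside a protein-coding gene, against 57.0%. In the strongest lists of all 3 replicates 154 (56.2%) were matched, against 55.3% of all optimal peaks. The median deposited signal was 310.1, against 299 for the whole list. These shares lay near the background.

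Sequence motifs were counted in windows that reached 100 bp to each side of a summit, on both strands. CTATCGA and TATCGATA overlap, as do TTGGCA and the NFI palindrome in part. TAATTA, a homeodomain core, was in 19.0% of windows near miRNA genes, against 16.4% of all optimal windows. CAGCTG, an E-box, was in 8.03% against 10.7%, and TTGGCA, which holds the core of an NFI site, in 12.4% against 13.4%. The shares were 7.30% against 6.85% for CTATCGA, 4.38% against 4.63% for TATCGATA and 4.74% against 3.74% for GAGAGAG, the GAGA factor repeat. They were 2.55% against 2.34% for GGTCACACT, bound by M1BP, and 1.09% against 0.827% for CAGGTAG, bound by Zelda. The NFI palindrome, TTGGC followed after 5 bases by its reverse complement, was in 0 of 274 windows, against 0.0689% of all. A match describes letters in the window and says nothing of binding by the named factor.

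The list of miRNA pathway genes also held genes of RNA interference and of mRNA decay. Of its 20 genes, 19 were found in the annotation. An optimal summit lay within 500 bp of a TSS in 8 of 19 (42.1%), against the 26.1% of all protein-coding genes given above. With peaks found in the strong lists of all 3 replicates the count was 4 of 19, against 15.4% of all protein-coding genes. The pathway genes had 2.11 TSSs each on average and a median length of 6253 bp, against 1.41 TSSs and 2166 bp, and the part of this in the result was not tested. The 8 with an optimal summit there were drosha, Ranbp21 (the hairpin exporter Exportin-5), AGO1, Fmr1, r2d2 of the RNA interference pathway, and twin, Pop2 and Not1 of the CCR4-NOT deadenylase complex. The strongest was that of r2d2, 127 bp from the TSS, with relative signals of 3.08, 1.88 and 2.43 in replicates 2, 3 and 4. At drosha the values were 0.722, 0.413 and 0.947. AGO1, with 1.41, and Not1, with 0.622, were matched in replicate 2 alone. Of the other 11, pasha had its nearest optimal summit 1808 bp from the TSS, at rank 54 and with 6.33, 8.94 and 9.60, and Tailor, a uridyltransferase gene, had one at 576 bp.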

How the data were processed

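Deposited narrowPeak lists on assembly dm6 were used. Per the file headers and listings, the authors derived each replicate list from 1 alignment and a control shared by the libraries, the pooled list from the 3 alignments, and the optimal list by the irreproducible discovery rate. Which aligner and caller were used was not given in the sources used here. Peak signal is a value the authors deposited, on an unstated scale. The deposited significance is a −log10 q-value and was used for 1 alternative. No read counts are given, so depth is unknown.

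Genes and TSSs came from Ensembl release 115 (BDGP 6.54), without 485 mature miRNA entries, and sequence and primary transcript names from RefSeq. A summit was assigned to every gene within 10 kb, and peaks were matched to replicates by an overlap of at least 1 bp. Neighbouring peaks can share a match. Positions are 1-based. Named genes were those with an optimal summit within 1 kb, those beside the 15 strongest member summits, 15 well-studied miRNA genes, hosts with the most summits, and 1 gene without a summit per list. Members and lists were chosen with earlier results of these data known, and the primary transcripts were added after the data were seen. Functions were checked on constructed examples with known answers. With 1 group and genes that are not replicates, no p-value was computed, and shares are set beside their background. Python 3.11.15 with numpy 2.4.6 was used.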

Additional observations from a re-analysis of the deposited data

How the results depend on the processing

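The share of miRNA genes with an optimal summit within 10 kb (63.8%) followed the distance used, at 18.8% within 2 kb, 40.4% within 5 kb and 78.5% within 20 kb. It was 39.6% with optimal peaks matched in all 3 replicates, 44.2% with the 2903 strongest peaks of the list, 45.0% to 48.5% without one replicate, 63.1% over loci, and 10.4% with each summit given to the nearest TSS alone. Inside protein-coding genes (63.9%) the values were 16.3%, 41.0% and 78.3% for the same distances, 44.6% matched in all replicates, 46.4% for the 2903 strongest, and 49.4% to 51.2% without one replicate. Outside (63.8%) they were 23.4%, 39.4%, 78.7%, 30.9%, 40.4%, and 37.2% to 43.6%. The pooled share (91.2%) was 50.8%, 68.8% and 97.7% for the same distances, and 71.9% with pooled peaks of q 0.01 or lower. The mean over the replicates' strongest peaks (59.2%) was 58.8% to 59.6% without one replicate, 91.2% with full lists and 42.8% with the 2903 strongest. The values for other distances, peak sets and list lengths search fewer or more peaks or bases, while those over loci and by nearest TSS change the unit or the rule of assignment. The share of all other genes was not computed for these alternatives, so they do not show whether miRNA genes change more or less than other genes.

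The share of summits near miRNA genes inside a protein-coding gene (54.0%) was 57.1% matched in all replicates, 49.0% for the 2903 strongest, 55.2% to 57.7% without one replicate, 40.1% with same-strand genes alone and 48.5% within 5 kb. The share within 500 bp of a TSS (55.8%) was 61.2% for the 2903 strongest, 67.9% within 1000 bp, and 54.3% to 60.9% without one replicate. Pathway genes with a promoter summit numbered 8, against 4 with peaks matched in all replicates. Primary transcripts with one numbered 5, with 7 within 1000 bp and 4 matched in all replicates or without any one replicate, alternatives chosen after seeing the data. The share of the other long non-coding and antisense RNA genes was not computed for these alternatives, so they have no background beside them. Leaving out 1 replicate moved the mean relative signal of 3 of 72 named summits by over 1.5 times, in each case replicate 2. The mean went to 0.271 from 0.448 at rank 5705 beside mir-1, and to 0.521 from 0.848 at rank 2775 beside mir-4911. At rank 5411 beside mir-9380 it went to 0.379 from 0.623. That summit was matched in 2 replicates, so 0.379 is the value of 1 replicate. Dividing by the median of the full list moved all 72, since that median is lower. Matching by the nearest summit within 200 bp moved 1, that of rank 3496 beside mir-2a-1, to a mean of 1.80 in place of 4.89. In windows of 50 bp to each side, 4 of 9 motif shares were outside the counting interval of the wider window. The narrower window lies within the wider one, so its shares can only be equal or lower. The shares of all optimal windows were not computed at this width, so the change does not show how stable the motif shares are. Depth is unknown, so that a missing peak is not evidence of no binding. No paired analysis was possible because the study has 1 group.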
